A study of Papio hamadryas with 4 samples.

Results

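The transporters described here are 10 solute carriers with which the proximal tubule of the kidney couples phosphate, glucose, bicarbonate, sulfate and organic acids to sodium. They were chosen by gene symbol in the annotation of the array's probes, as SLC34A1, SLC34A3, SLC20A2, SLC5A2, SLC5A1, SLC9A3, SLC4A4, SLC13A3, SLC13A1 and SLC5A12. All 10 had a probe, with 12 probes among 48702 on the array, and 8 of the 10 gave a signal above the array's median on all 4 arrays, as did 11908 of 18774 genes in all. The study measured RNA of kidney biopsies from baboons (Papio hamadryas) on Illumina bead arrays with Cy3 label, whose probes are annotated to human genes. Its 4 groups, with 1 array each, crossed a normal SLC (NSLC) or high SLC (HSLC) phenotype with a low or a high sodium diet, fed for 6 weeks before the biopsy. SLC in the phenotype names is not spelled out in the labels and is a different thing from SLC in the gene symbols, which means solute carrier. No source used here gives the animals' genotype or age, or how many stand behind an array.

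The proximal tubule takes back most of what the glomerulus filters. Its sodium pump keeps sodium low inside the cell, and carriers of the brush border use that gradient to draw phosphate, glucose and acids in from the urine. Sodium-hydrogen exchange at the brush border and sodium-bicarbonate cotransport at the blood side recover bicarbonate together. These carriers are therefore a large part of the kidney's sodium reabsorption, and several are known targets of hormones or drugs.

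Before the transporters are described, the arrays themselves have to be set against each other. The median deposited intensity lay between 68.2 and 79.5, while the brightest probes were higher on the high sodium array of NSLC, with a 99th percentile of 3298 against 2320 to 2490 on the others. Signals below are either deposited intensities on a linear scale or log2 values after background correction and quantile normalization, which gives all arrays the same distribution. That step matters here: in the NSLC diet comparison the median of all genes was 0.04 on the log2 scale after quantile normalization but 0.28 without normalization between arrays. The array of HSLC on low sodium stands apart by skeletal muscle transcripts, whose 8 listed markers summed to 13785 there against 721 to 1339.7 on the others. Proximal tubule markers were present as the tissue label implies: 13 of 14 had a probe and all 13 were detected on the 4 arrays. Their summed intensity was 37402 and 42314 in NSLC (low, then high sodium) and 37705 and 28729 in HSLC. In a biopsy, fewer proximal tubule cells and less RNA per cell cannot be told apart. With 1 array a group there is no spread between replicates, so a ratio of 1 array over another is a description, counted as past 2-fold or not. Only a limma fit over all 4 arrays gives a test, and each use of it is named.

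Across the 4 arrays, the transporters were lowest in HSLC on high sodium. On the normalized scale 6 of the 8 detected members had their lowest value on that array, where 18.9% of all detected genes had theirs. On the deposited scale it was 7 of 8 against 44.6% of all genes, the exception being SLC20A2. The highest deposited value of all 8 lay in NSLC on high sodium, as it did for 74.1% of all genes. On the normalized scale 4 of 8 were highest in NSLC on low sodium, against 26.7% of all genes, and 1 in NSLC on high sodium, against 28.2%, so the high end of the order depended on the scale.

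**Figure D1:**
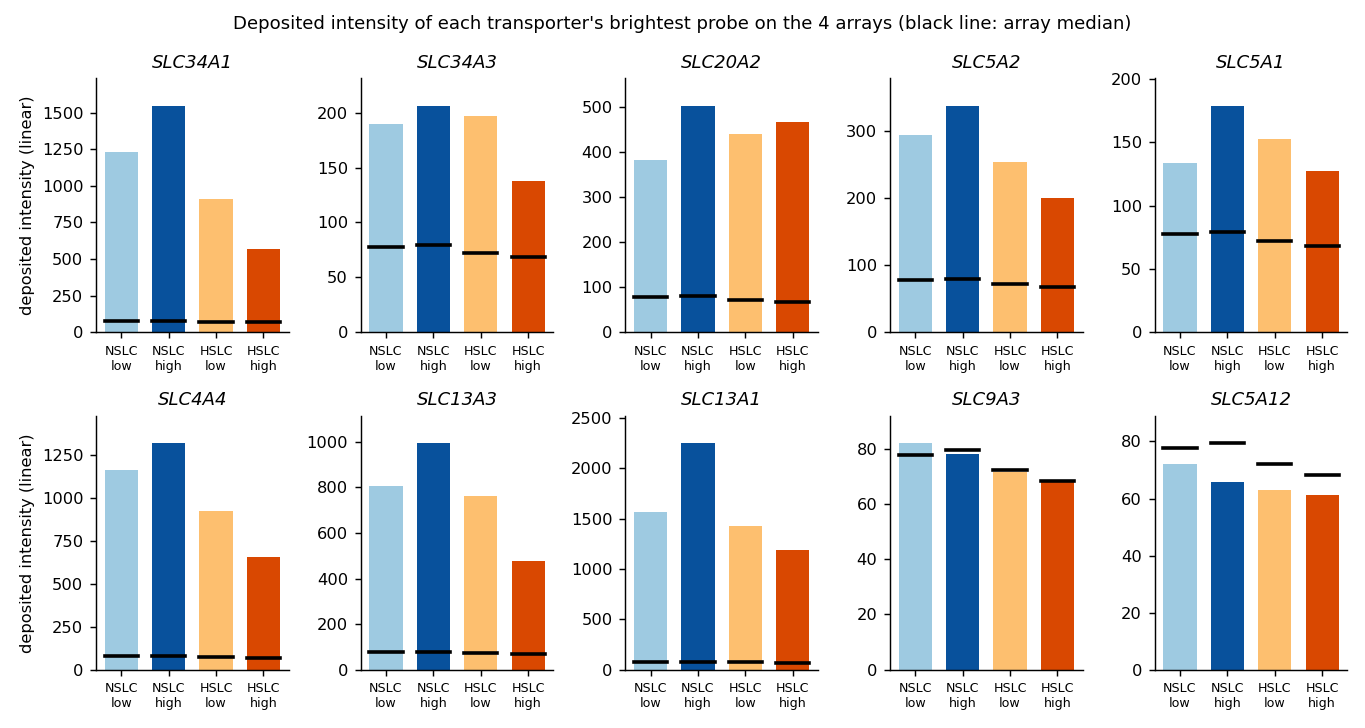
Deposited linear intensity of the brightest probe of each of the 10 transporters, with 1 bar for each array (NSLC or HSLC, low or high sodium) and a black line at that array's median. SLC34A1 runs from 567 in HSLC on high sodium to 1547 in NSLC on high sodium, SLC20A2 stays between 383 and 502, and SLC9A3 and SLC5A12 sit near or below the line.

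The phosphate carriers come first. SLC34A1, the main sodium-phosphate cotransporter of the brush border (NaPi-IIa), had a deposited intensity of 1229.6 on the low and 1547 on the high sodium array of NSLC, and of 912 on the low and 567 on the high sodium array of HSLC. Both HSLC arrays lay below both NSLC arrays, and the array of HSLC on high sodium was the lowest. Its normalized log2 values were 10.46, 10.24, 9.98 and 9.14 in the same order, a range of 1.31 and the widest of the 8 members. SLC34A3, the renal cotransporter NaPi-IIc, stood at 189, 206, 197 and 138, with 3 arrays close together and HSLC on high sodium below them. SLC20A2 (PiT-2), a phosphate carrier of most tissues that also lies in the brush border, stood at 383, 502, 439 and 465. It had the narrowest range of the 8 on the normalized scale, 0.26, and no low value in HSLC on high sodium.

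Of the glucose carriers, SLC5A2 (SGLT2), which recovers most of the filtered glucose in the early proximal tubule and is the target of the gliflozin drugs, had intensities of 294, 338, 254 and 200.4 in NSLC low, NSLC high, HSLC low and HSLC high sodium. As with SLC34A1, both HSLC arrays were below both NSLC arrays on this deposited scale, on which the HSLC arrays also had the lower medians. The normalized log2 values of SLC5A2 were 8.38, 8.13, 8.09 and 7.70, with NSLC on high and HSLC on low sodium nearly equal. SLC5A1 (SGLT1), the high affinity carrier of the late proximal tubule and the intestine, stood at 134, 179, 153 and 128. Its order differed from that of SLC5A2, with the low sodium array of NSLC nearly as low as HSLC on high sodium.

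Among the carriers of bicarbonate and acids, SLC4A4, the sodium-bicarbonate cotransporter of the basolateral membrane (NBCe1), stood at 1163, 1317, 922 and 656. On this scale the HSLC arrays were again the lower pair. The normalized log2 values of SLC4A4 were 10.38, 10.01, 9.99 and 9.36, with NSLC on high and HSLC on low sodium nearly equal. SLC13A3, the basolateral dicarboxylate carrier that supplies organic anion exchange, stood at 807, 994, 760.1 and 476 on its brightest probe, where only HSLC on high sodium was set apart. SLC13A1, the brush border sodium-sulfate cotransporter, stood at 1561, 2249, 1426 and 1191, the brightest probe of the set on all 4 arrays. These are different probes, so their brightness does not rank the transcripts. The probes used for the 8 detected members lay between the 82.0th and the 98.5th percentile of their arrays.

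Both other probes of SLC13A3 were detected on all 4 arrays, but only at 1.26 to 1.51 times the array's median, against 6.97 to 12.5 times for the bright probe. One dim probe, annotated to the same transcript as the bright one, had a diet ratio of -0.16 in HSLC, and the other, annotated to another transcript of the gene, one of -0.05, where the bright probe stood at -0.82. With the mean over the 3 probes the SLC13A3 ratio was -0.34. Between phenotypes on high sodium the dim probes, in the same order, stood at -0.14 and -0.02, against -0.73 for the bright probe. In the difference of the diet ratios, HSLC minus NSLC, they stood at -0.19 and 0.06, against -0.57.

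SLC9A3 and SLC5A12 gave no usable signal. SLC9A3, the brush border sodium-hydrogen exchanger NHE3, is the main route of sodium entry in this segment. Its probe read 82.0, 77.9, 71.4 and 67.8 against array medians of 77.7, 79.5, 72.1 and 68.2, above the median only in NSLC on low sodium. SLC5A12, a low affinity lactate carrier, read 72.0, 65.8, 62.8 and 61.2, below the median on every array. Nothing is said below about a change of either, and a probe at this level does not show that the transcript is absent.

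The comparison of the diets in the high SLC phenotype asked how the kidney of these animals differs with sodium intake. All 8 detected transporters were below 0 on the high sodium diet, as were 47.3% of 12481 genes detected on both arrays. Their median log2 ratio was -0.46, against 0.0095 for all genes. SLC34A1 was 1.78-fold lower (-0.83) and SLC13A3 1.76-fold lower (-0.82). Of all genes, 0.393% had a lower ratio than SLC34A1 and 0.457% a lower one than SLC13A3. SLC4A4 was 1.55-fold lower (-0.63), SLC34A3 1.44-fold (-0.52), SLC5A2 1.31-fold (-0.39) and SLC13A1 1.30-fold (-0.38).

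SLC5A1 stood at -0.25 and SLC20A2 at -0.05 in HSLC. By the 2-fold rule 0 of the 8 counted as lower and 0 as higher, where 0.232% and 0.529% of all genes did, and at 1.5-fold 3 of the 8 did (SLC34A1, SLC13A3 and SLC4A4), against 1.33% of all genes. The ratios of 6 members, all but SLC5A1 and SLC20A2, were below 0 under each of 10 other processing choices and with another reference array. That reference was the array of NSLC on low sodium, put in place of the HSLC low sodium array with its muscle transcripts. It gave 2 members past 2-fold, SLC34A1 at -1.31 and SLC4A4 at -1.02, with SLC13A3 at -0.97, but mixes the diet with the phenotype. SLC5A1 was then at 0.02 and SLC20A2 at 0.06.

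In the normal phenotype the same diet comparison gave smaller ratios, and their direction depended on how the arrays were scaled. After quantile normalization the median of the 8 members was -0.18 and 6 of 8 were below 0, against 43.5% of 12190 genes. SLC4A4 had the lowest ratio (-0.37), followed by SLC13A3 and SLC5A2 (both -0.25), SLC34A1 (-0.21), SLC34A3 (-0.15) and SLC20A2 (-0.14). SLC13A1 was at 0.01 and SLC5A1 at 0.24. By the 2-fold rule 0 members were lower and 0 higher, against 0.148% and 0.5% of genes, and at 1.5-fold 0 were lower, against 1.76%.

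Without normalization between arrays all 8 NSLC ratios were above 0, with a median of 0.32, which is 0.04 above the median of all genes in that setting. With the series matrix as deposited, a second table of the same arrays, the median was 0.07 and stood 0.16 above that of all genes. SLC5A1 was the 1 member with the same sign under all 10 alternatives, from 0.11 to 0.43, and it lay above the median of all genes in each. SLC34A3 changed sign but lay below the median of all genes in each, at -0.23 to -0.05 from it. For the other 6, no direction on high sodium in NSLC can be given from these arrays.

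**Figure D2:**
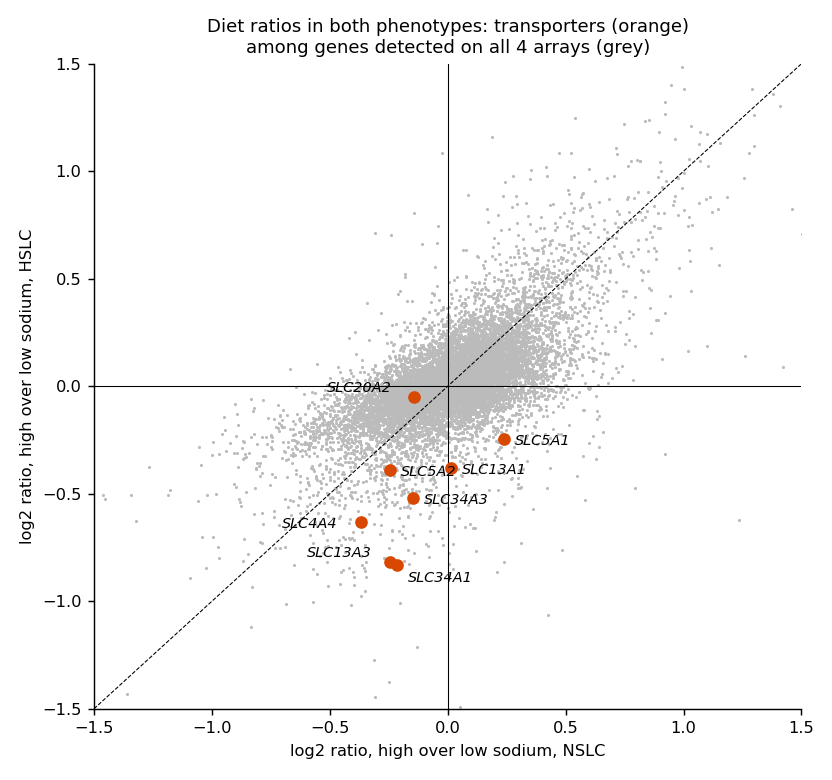
Log2 ratio of high over low sodium in NSLC (horizontal) and in HSLC (vertical), for 11908 genes detected on all 4 arrays (grey, 43 of them outside the axes) and the 8 transporters (orange), after quantile normalization, with the dashed line marking equal ratios. Of the transporters, 7 lie below that line, and SLC20A2 lies just above it.

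The difference of the diet ratios, HSLC minus NSLC, was below 0 for 7 of the 8 members, against 49.7% of 11908 genes, with a median of -0.39. It was -0.62 for SLC34A1, -0.57 for SLC13A3, -0.49 for SLC5A1, -0.40 for SLC13A1 and -0.37 for SLC34A3. SLC4A4 stood at -0.27, SLC5A2 at -0.14 and SLC20A2 at 0.09. The same 7 members were below 0 in this difference under all 10 alternatives, and below the median of all genes. By the 2-fold rule 0 were lower and 0 higher, where 0.286% and 0.0672% of genes were, and at 1.5-fold 1 was lower (SLC34A1), against 1.22%. SLC34A1 was past 2-fold at -1.01 without normalization and at -1.02 with the sample files as deposited. The 4 arrays leave no error for this difference, so it has no test.

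**Figure D3:**
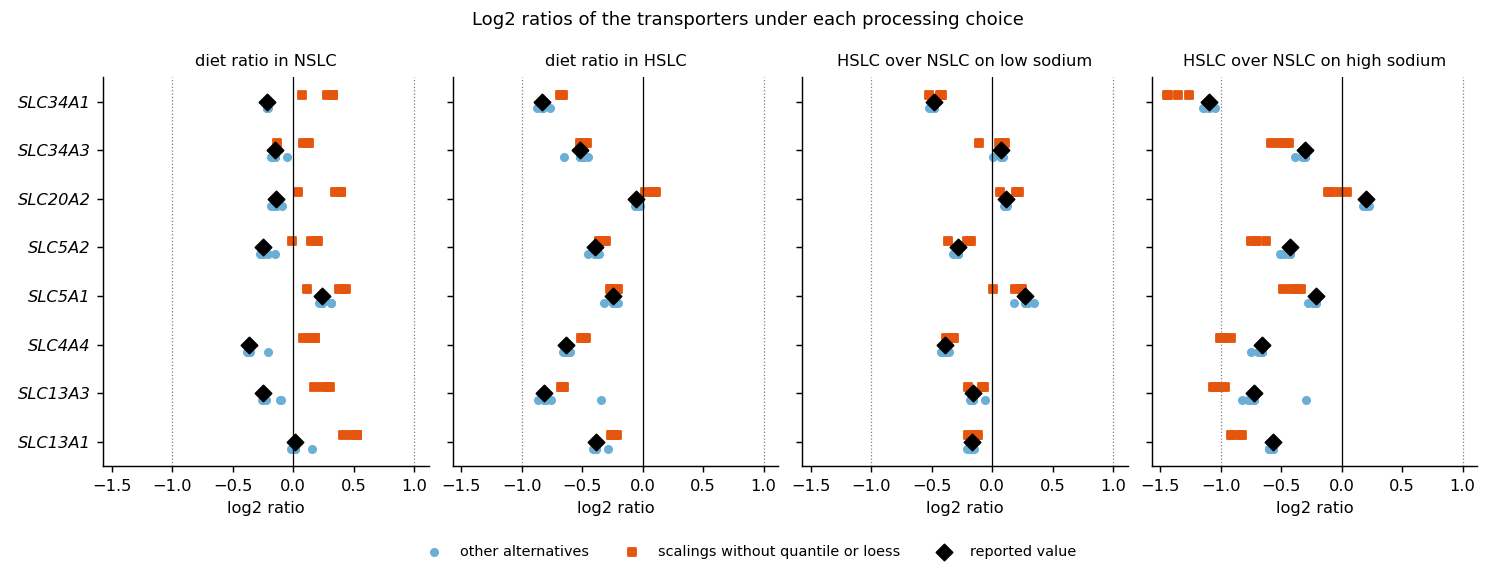
Log2 ratios of the 8 transporters in 4 comparisons, with the reported value as a black diamond, the 4 scalings that do not equalize the arrays' distributions as orange squares and the other alternatives as blue circles. Dotted lines mark 2-fold. In NSLC the orange squares of SLC34A1 lie on the other side of 0 from its diamond, whereas in HSLC, over the same settings, its points lie between -0.87 and -0.66.

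The phenotypes were compared on each diet to ask how they differ at the same sodium intake. On high sodium, SLC34A1 was 2.14-fold lower in HSLC than in NSLC (-1.10) and was the 1 member past 2-fold, where 0.352% of 12517 genes were lower by as much. It stayed past 2-fold under all 10 alternatives, from -1.45 to -1.05. Relative to the median of all genes, which moved from 0.02 to as low as -0.23 among them, it lay between -1.29 and -1.07. SLC13A3 stood at -0.73, SLC4A4 at -0.66 and SLC13A1 at -0.57. SLC5A2 was at -0.43, SLC34A3 at -0.30 and SLC5A1 at -0.22, whereas SLC20A2 was at 0.20 (-0.11 without normalization). The median of the 8 was -0.50 against 0.02 for all genes, and 7 were below 0, as were 43.9% of all genes. None was higher by 2-fold, against 0.0959% of all genes. At 1.5-fold 3 were lower (SLC34A1, SLC13A3 and SLC4A4), against 2.13%.

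On low sodium the phenotypes were closer. SLC34A1 stood at -0.48 and SLC4A4 at -0.39, with 0.688% and 1.32% of 12357 genes lower than each. SLC5A2 was at -0.29, SLC13A1 at -0.17 and SLC13A3 at -0.16, while SLC34A3 was at 0.07, SLC20A2 at 0.11 and SLC5A1 at 0.27. Thus 5 of 8 were below 0, against 49.1% of all genes, and 0 were lower and 0 higher by 2-fold, against 0.0486% and 0.275%, nor was any lower by 1.5-fold, which 0.324% were. With the series matrix as deposited, where the median of all genes was -0.24, SLC13A1 and SLC13A3 lay 0.04 above that median. The proximal tubule markers, on the same comparison, had a median of 0. Of the 13 markers 6 were above and 6 below 0 there, from DPYS at -0.55 and FBP1 at -0.51 to HAO2 at 0.22, so the values of SLC34A1, SLC4A4 and SLC5A2 lay within the range of the segment's markers. The HSLC array of this comparison is the one with the muscle transcripts described above. The part of that muscle RNA in these values was not tested.

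A limma fit of diet and phenotype as additive terms over the 4 arrays tested the diet ratio averaged over both phenotypes, and the phenotype ratio averaged over both diets. A call for diet therefore does not show that each phenotype changed, nor a call for phenotype that it held on each diet. With 1 residual degree of freedom, its error for each gene is the difference of the diet ratios, moderated over 11908 genes, and the spread between animals does not enter it. In this fit 5 of the 8 transporters fell on high sodium at a Benjamini-Hochberg adjusted p of 0.05 and 0 rose, where 7.11% of genes fell and 8.79% rose. SLC13A3 fell by 0.53 (95% interval -0.78 to -0.28, adjusted p = 0.00694) and SLC34A1 by 0.52 (-0.78 to -0.26, adjusted p = 0.00951) in the limma fit. SLC4A4 fell by 0.50 (-0.70 to -0.30, adjusted p = 0.00274), SLC34A3 by 0.33 (-0.55 to -0.12, adjusted p = 0.0380) and SLC5A2 by 0.32 (-0.51 to -0.12, adjusted p = 0.0278). SLC13A1 stood at -0.18 with a limma interval of -0.40 to 0.04, SLC20A2 at -0.10 (-0.29 to 0.09) and SLC5A1 at -0.0045 (-0.24 to 0.23). Also at an unadjusted p of 0.05 the fit called 5 members lower and 0 higher, where 3561 of 11908 genes passed in either direction.

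These diet calls were lost under several other settings. Without normalization, with median scaling, with the sample files as deposited and with the series matrix as deposited, limma called 0 of the 8 for diet. SLC34A1 then stood between -0.30 and -0.17, with limma adjusted p from 0.212 to 0.638. Over those settings 37, 73, 34 and 407 genes fell, against 847 in the fit reported. With cyclic loess the limma fit called SLC4A4 and SLC13A3 lower. With the mean over detected probes it called 3, and SLC13A3 and SLC34A3 lost their call. With quantile normalization kept, the limma fit called 0 of the 8 without the phenotype term (1 at an unadjusted p of 0.05, as were 2514 of 11908 genes) and 1 with no detection filter.

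The phenotype term of the limma fit called 3 of the 8 lower in HSLC and 0 higher, against 2.87% and 0.857% of genes. SLC34A1 was lower by 0.79 (95% interval -1.05 to -0.53, adjusted p = 0.00225), SLC4A4 was at -0.52 (-0.73 to -0.32, adjusted p = 0.00651) and SLC5A2 at -0.36 (-0.55 to -0.16, adjusted p = 0.0432) in the limma fit. SLC34A1 and SLC4A4 kept their limma call in 10 of 12 alternatives, the exceptions being no detection filter and the fit without the diet term. SLC5A2 kept it in 5 of 12. SLC13A3 at -0.44 (adjusted p = 0.0523) and SLC13A1 at -0.37 (adjusted p = 0.0686) missed the limma threshold. At an unadjusted p of 0.05 these 5 were lower and 0 higher, where 1798 of 11908 genes passed in either direction. SLC34A3 stood at -0.12 (-0.33 to 0.10), SLC20A2 at 0.16 (-0.03 to 0.35) and SLC5A1 at 0.03 (-0.21 to 0.26) in the same fit.

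**Figure D4:**
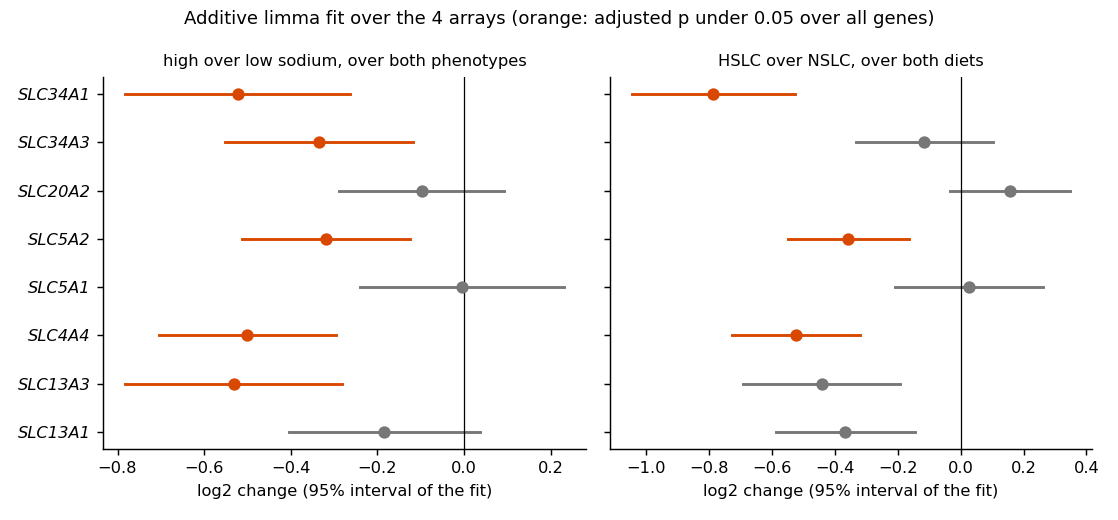
Log2 change of the 8 transporters in the additive limma fit, high over low sodium (left) and HSLC over NSLC (right), with points for the estimate, lines for the 95% interval and orange for an adjusted p under 0.05 over all genes. For diet 5 members are orange and for phenotype 3, with SLC34A1 and SLC4A4 among them on both sides.

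The genes that serve these carriers were taken from lists set by function. Of each list, and of the marker lists below, the 3 genes with the largest mean diet ratio were named, beside a fixed set of partners. The limma p-values of those 3 therefore belong to genes picked by the value tested. Of 11908 genes in this fit 7.11% fell on high sodium and 8.79% rose. For phenotype 2.87% were lower in HSLC and 0.857% higher. Of the phosphate handling partners, 17 had a probe and 11 were tested by limma: 4 fell on high sodium and 1 rose. NHERF1, the scaffold that holds NaPi-IIa at the brush border, fell by 0.39 (95% interval -0.60 to -0.19, limma adjusted p = 0.0123) with intensities of 4267, 5018, 3925 and 2813 in the order of arrays used above. PTH1R, the receptor through which parathyroid hormone withdraws phosphate carriers, fell by 0.41 (-0.61 to -0.21, adjusted p = 0.00881), and its intensities were 3279, 3774, 2926 and 2194. Both therefore had their lowest deposited value in HSLC on high sodium, as SLC34A1 did and as 44.6% of all genes did. The limma diet call of NHERF1 held in 5 of 12 alternatives and that of PTH1R in 6.

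CYP27B1, which makes active vitamin D, fell by 0.63 (limma adjusted p = 0.000464) and VDR, the vitamin D receptor, by 0.53 (adjusted p = 0.00558). VDR was also the 1 gene of the 11 called lower in HSLC, at -0.47 in the limma phenotype term (adjusted p = 0.0348), in 6 of 12 alternatives. STC1, a secreted glycoprotein that in mammals has been linked to renal phosphate uptake, rose by 0.997 (adjusted p = 6.85e-06) and stood at 1.0 in NSLC and 0.99 in HSLC. PDZK1, another scaffold of the brush border, stood at -0.26 (-0.45 to -0.06), short of the limma threshold (adjusted p = 0.0740). KL, the klotho co-receptor of the phosphate hormone FGF23, was not detected on all 4 arrays. With median scaling or no normalization 0 of the 11 phosphate partners fell and 2 rose. In those settings 73 and 37 of 11908 genes fell and 1763 and 1059 rose.

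Of the glucose partners 7 had a probe, and all 4 that limma tested fell, where 7.11% of all genes did. PDZK1IP1 (MAP17), the small membrane protein that activates SGLT2, fell by 0.35 (-0.56 to -0.14, adjusted p = 0.0267), with intensities of 2790, 3442, 2749.5 and 2049. Its limma call held in 5 of 12 alternatives. SLC5A10, a renal carrier of mannose and fructose, was at -0.20 in NSLC and -1.01 in HSLC, and fell by 0.61 in the limma fit (adjusted p = 0.00910). Its NSLC ratio was above 0 with the mean over detected probes. That ratio was also above 0, up to 0.32, under the 4 scalings that do not equalize the arrays' distributions. The HSLC ratio of SLC5A10 ran from -1.11 to -0.56 over the alternatives. The limma call of SLC5A10 held in 4 of 12 alternatives. SLC37A4, the glucose-6-phosphate carrier of gluconeogenic cells, fell by 0.41 (adjusted p = 0.0350), a limma call held in 3 of 12 alternatives. It was also the 1 of these 4 called lower in HSLC, at -1.01 in the limma phenotype term (adjusted p = 0.000511), a call kept in 10 of 12 alternatives. SLC5A11, an inositol carrier, fell by 0.42 (adjusted p = 0.0235), a limma call held in 4 of 12 alternatives. SLC2A2 (GLUT2), the basolateral exit for glucose, was not detected on all 4 arrays. These 4 calls became 0 with median scaling or no normalization, and 1 with cyclic loess, where 73, 37 and 416 of 11908 genes fell.

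In the acid-base list 13 genes had a probe, 11 were tested by limma, 6 fell and 0 rose, against 7.11% and 8.79% of all genes. The 6 include NHERF1, counted above, and PCK1, which is also among the proximal tubule markers below. CA4, the carbonic anhydrase of the brush border that works with bicarbonate recovery, fell by 0.73 (-0.92 to -0.54, adjusted p = 9.24e-05). It was at -0.71 in NSLC and -0.75 in HSLC, and its limma call held in 9 of 12 alternatives. CA4 was also the 1 of the 11 called lower in HSLC, at -0.47 (limma adjusted p = 0.00889, in 8 of 12 alternatives). CA12, a membrane carbonic anhydrase, fell by 0.53 (adjusted p = 0.00164) and PCK1, the gluconeogenic enzyme tied to ammonia production, by 0.52 (adjusted p = 0.00245). Of this list 1 gene fell with median scaling and 0 without normalization, where 73 and 37 of 11908 genes did.

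The organic acid and sulfate list had 11 genes with a probe, and of 10 tested by limma 5 fell and 0 rose. Of all genes 7.11% fell and 8.79% rose. SLC13A2, the brush border citrate carrier related to SLC13A3, fell by 0.54 (adjusted p = 0.00167). SLC23A1, the ascorbate carrier, fell by 0.53 (adjusted p = 0.00179). SLC17A3, an organic anion carrier, fell by 0.50 (adjusted p = 0.0130) in the limma fit, a call held in 4 of 12 alternatives. Between phenotypes it stood at -0.73 on low and -1.35 on high sodium, and its limma phenotype term was -1.04 (adjusted p = 0.00039), the 1 call among the 10 and present in 10 of 12 alternatives. Its intensities were 610.1, 784, 392 and 236, with both HSLC arrays below both NSLC arrays. The list's calls also became 0 with median scaling or no normalization, where 73 and 37 of 11908 genes fell.

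Of the list of basolateral sodium and potassium exit 5 genes were tested by limma. For phenotype 0 were called (1 at an unadjusted p of 0.05, as were 1798 of 11908 genes). For diet 0 were called in either direction, also at an unadjusted p of 0.05. ATP1B1, the beta subunit of the pump, stood at 0.14 (-0.06 to 0.33), FXYD2, its kidney gamma subunit, at -0.19 (-0.38 to 0.0074) and the potassium channel KCNJ15 at 0.16 (-0.03 to 0.35). Of 6 transcription factors tested, MAF fell by 0.37 (limma adjusted p = 0.0123), while EHF was at 0.19 and PPARA at -0.15. It was the 1 call among the 6, where 7.11% of all genes fell. With median scaling 0 of the 6 fell and 1 rose, where 73 and 1763 of 11908 genes did.

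**Figure D5:**
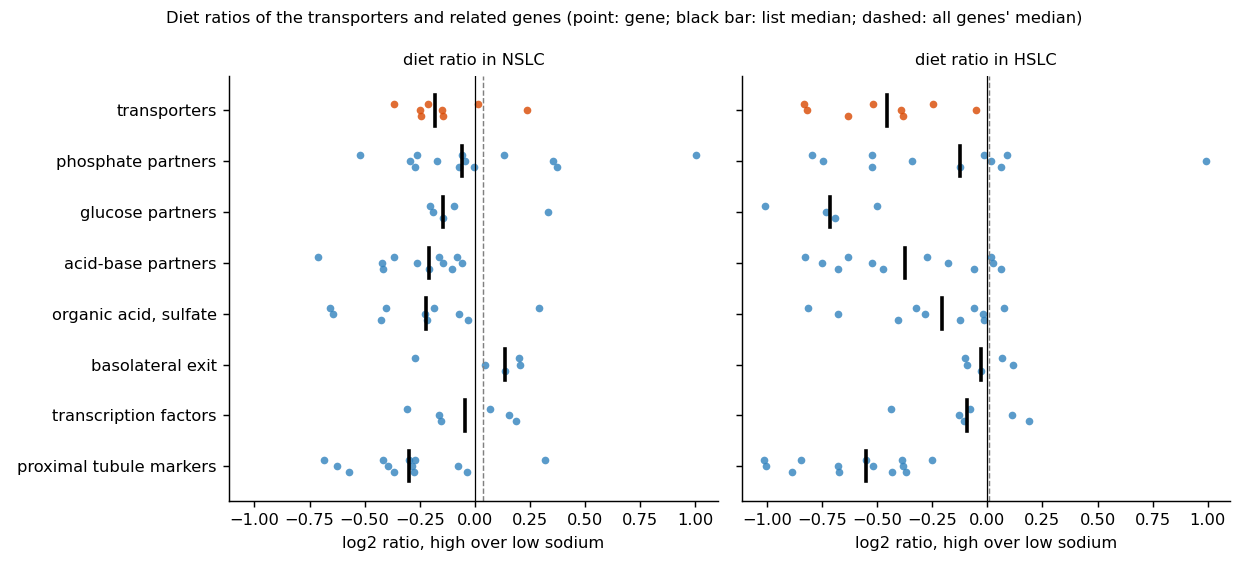
Log2 ratio of high over low sodium in NSLC (left) and HSLC (right) for the transporters (orange) and the genes of 7 related lists (blue), 1 point for each detected gene, with the list median as a black bar and the median of all genes dashed. In HSLC the transporters' median is -0.46, that of the glucose partners -0.71, that of the proximal tubule markers -0.55 and that of the basolateral list -0.03.

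The transporters were next read against their own segment. The proximal tubule markers, 13 of them detected, had a median of -0.55 in HSLC and -0.30 in NSLC for diet (0.17 in NSLC without normalization). In the limma fit 10 of the 13 fell, against 7.11% of all genes, and 0 without normalization, where 37 of 11908 genes did. Among them MIOX, the inositol oxygenase, fell by 0.85, the gluconeogenic enzyme FBP1 by 0.79 and the peroxisomal oxidase HAO2 by 0.64. Set against the marker median of -0.55 in HSLC, SLC34A1 was lower by a further 0.28 and SLC13A3 by 0.27, SLC4A4 lay at -0.08 from it and SLC34A3 at 0.03. The 13 markers ran from -1.01 (MIOX) to -0.25 in HSLC, so SLC34A1 and SLC13A3 lay within their range. SLC13A1 stood 0.17 above that marker median, SLC5A2 0.16, SLC5A1 0.30 and SLC20A2 0.50 above. Between phenotypes on high sodium the marker median was -0.27, and SLC34A1 lay at -0.82 from it, SLC13A3 at -0.45 and SLC4A4 at -0.38. There the markers ran from -0.94 (FBP1) to -0.04, with SLC34A1 below that range and SLC13A3 and SLC4A4 within it.

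Markers of other cells and other nephron segments moved too. On high sodium the summed intensity of 5 tubular injury markers went from 959.7 to 3496 in NSLC and from 1182 to 3174 in HSLC, that of 5 fibroblast and matrix markers from 3486 to 11669 and from 4619.8 to 10553, and that of 4 macrophage markers from 869 to 2181 and from 985 to 2296. Of the injury markers 4 of 5 rose in the limma fit, against 8.79% of all genes. HAVCR1 rose by 2.65, and 0 of the 5 were listed at 0 intensity. Of 4 markers of the distal tubule and collecting duct tested, 3 fell and 1 rose, where 7.11% and 8.79% of all genes did. KLK1, the tissue kallikrein, fell by 1.40 and SLC12A3, the thiazide-sensitive sodium-chloride cotransporter, by 0.99, both called in 12 of 12 alternatives and both past the estimate of any transporter. SCNN1B, the beta subunit of the epithelial sodium channel, fell as well, and the water channel AQP2 rose by 0.47. The summed intensity of the 6 markers listed for this segment went from 2258 to 1652 in NSLC and from 2265 to 1391 in HSLC. In the thick ascending limb SLC12A1, the loop diuretic target, rose by 0.64 (1.10 in NSLC and 0.19 in HSLC), 1 of 2 tested. All 4 skeletal muscle markers tested fell, with the sums given above. The part of these cells in the transporters' ratios was not tested.

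Which genes had a pattern most like that of the leading transporters was asked over the 4 arrays, as the distance between centred log2 values, among 11907 other genes. Nearest to SLC34A1 were APOM, a lipoprotein component made in liver and kidney (distance 0.13), CAT, the peroxisomal catalase (0.14), the phosphatase subunit PPP2R1B (0.17) and SMPDL3A (0.18). APOM ran at 8.69, 8.32, 8.19 and 7.40 in NSLC low, NSLC high, HSLC low and HSLC high sodium. Nearest to SLC4A4 were FAH, of tyrosine breakdown (0.076), the deiodinase DIO1 (0.10), AKR7A2 (0.11) and ALDH3A2 (0.13). Among the transporters themselves the closest pair was SLC4A4 and SLC13A3 (0.18), followed by SLC5A2 and SLC13A1 (0.18 as well) and SLC5A2 with SLC4A4 (0.25). The farthest pair was SLC34A1 and SLC20A2, both phosphate carriers, at 1.10, and SLC34A1 and SLC34A3 were 0.71 apart. With 4 arrays these distances are a description of the 4 values of each gene.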

How the data were processed

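Total RNA of 4 kidney biopsy samples was extracted with Trizol and RNeasy columns and labelled with the Illumina TotalPrep kit, per the labels' protocols. Signal intensity on a linear scale was deposited for 48702 probes a sample, from BeadStudio per the submitters' processing notes. No source used here gives its version, background correction or normalization, or says whether RNA was pooled. The deposited series matrix holds intensity of the same arrays with means equal within each phenotype (215 and 192), by a method not given.

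From the sample files, 1 probe listed at 0 was left out, normexp background correction (offset 50), quantile normalization and log2 were applied (limma 3.58.1, R 4.3.3). A probe was detected where its intensity exceeded the array's median. The annotation gave 23688 probes a single symbol, 35 several and 24979 none, and a gene was represented by its brightest probe. NHERF1, NHERF2 and CHP1 were found under these newer symbols. Some genes in the rule for named genes are not reported here. Comparisons were log2 ratios with a 2-fold rule, and a limma fit of diet plus phenotype with Benjamini-Hochberg adjustment over 11908 genes. The offset compresses the ratios of dim probes. No error, bead count or detection p was used, so the number of arrays limits the precision.

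The members and lists were chosen with earlier results of these data known. Named were all members, the 3 genes of each related list with the largest mean diet ratio, a fixed set of partners, and the 4 genes nearest to each of the 2 members of widest range. DPYS and SCNN1B were named after their values were seen. Alternatives were other scalings, offset, filter, probe rule, fold and model; the uncorrected sample files and the other reference array were added after seeing the data.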

Additional observations from a re-analysis of the deposited data

Results flagged for a closer look

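SLC5A1 went opposite ways with diet in the phenotypes, at 0.24 in NSLC and -0.25 in HSLC, a difference of -0.49, and for the same reason opposite ways between phenotypes on low (0.27) and high sodium (-0.22), again a difference of -0.49. SLC13A1 was at 0.01 in NSLC and -0.38 in HSLC, a difference of -0.40. SLC34A3 in HSLC over NSLC was at 0.07 on low and -0.30 on high sodium, a difference of -0.37. Each rests on 1 array a group and the differences were not tested. SLC13A1 in NSLC was at -0.01 with cyclic loess, and SLC34A3 on low sodium at -0.11 with the series matrix as deposited.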

How the results depend on the processing

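A median counted as moved when it changed sign or shifted by the disagreement between probes of 1 gene or more (standard deviation 0.15 to 0.21 on the log2 scale, 515 genes). In HSLC over diet and on low sodium between phenotypes the members' medians moved under no alternative run. The NSLC diet median, -0.18, became 0.32 without normalization, 0.26 with median scaling, 0.074 with the series matrix as deposited and 0.32 with the sample files as deposited. In the same order of settings the high sodium phenotype median, -0.50, became -0.81, -0.73, -0.77 and -0.83. The median difference of diet ratios, -0.39, became -0.59 with median scaling, -0.66 without normalization and -0.67 with the sample files as deposited. Members past 2-fold on high sodium between phenotypes, 1 as reported, numbered 2 without normalization, 2 with the series matrix as deposited and 3 with the sample files as deposited. At 1.5-fold 3 passed there, 3 for diet in HSLC and 1 in the difference of diet ratios, which also had 1 past 2-fold without normalization and with the sample files as deposited. Diet in HSLC had 2 past 2-fold against the NSLC low sodium array. The limma diet term, with 5 members called, called 0 with the sample files as deposited, with median scaling and without normalization, where 0 also passed an unadjusted p of 0.05. Over all genes 847 fell and 1047 rose, against 37 and 1059 without normalization, 73 and 1763 with median scaling, 34 and 915 with the sample files as deposited, 407 and 434 with the series matrix as deposited, 416 and 722 with cyclic loess, 281 and 602 with no detection filter and 5 and 25 without the phenotype term. The limma diet term called 0 members with the series matrix as deposited and 0 without the phenotype term (1 unadjusted in each, as were 2946 of 11832 and 2514 of 11908 genes), 1 with no detection filter, 2 under cyclic loess, 3 with the series matrix after quantile normalization and 3 with the mean over probes. The limma phenotype term, with 3 called, called 5 with the series matrix as deposited, with detection above the 75th percentile and with a variance trend, 0 with no detection filter (5 unadjusted) and 0 without the diet term (1 unadjusted). For phenotype 342 genes were lower and 102 higher, against 125 and 12 with cyclic loess, 1 and 0 with no detection filter (2191 of 18774 at an unadjusted p of 0.05) and 0 and 0 without the diet term (483 at an unadjusted p of 0.05). With the series matrix as deposited 511 of 11832 genes were lower and 29 higher, and the median of all genes was -0.16. With detection above the 75th percentile 395 of 7753 were lower and 128 higher. With a variance trend 564 of 11908 were lower and 205 higher. The cause of these changes was not tested.

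Limma changes that reversed were short of the threshold. For diet, in the order no normalization, median scaling and sample files as deposited, SLC5A1 was at 0.11, 0.088 and 0.079, SLC20A2 at 0.25, 0.23 and 0.24 and SLC13A1 at 0.14, 0.12 and 0.13. SLC5A1 was also at 0.0085 under cyclic loess and 0.048 with the series matrix after quantile normalization, and with the series matrix as deposited SLC20A2 was at 0.031 and SLC13A1 at 0.099. For phenotype SLC5A1 was at -0.044 with median scaling, -0.086 without normalization, -0.027 with cyclic loess, -0.18 with the series matrix as deposited and -0.15 with the sample files as deposited. No paired analysis was possible because each group has 1 array, and for the same reason none could be left out.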
